A study of Mus musculus with 18 samples.

Results

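The lungs of flutamide-treated XY fetuses (17 flut) were set against the lungs of vehicle-treated XX fetuses (17 f) at gestational day (GD) 17 of the BALB/c mouse. Flutamide is an antagonist of the androgen receptor, and 1 mg was given under the skin of the dam every day from GD10 until the day before harvest. The dams of 17 f received saline with gelatin and dimethylsulfoxide alone. Each array carried lung RNA pooled from 3 fetuses of 1 sex that came from distinct litters, so a pool stands for 3 fetuses and not for 1. The 6 pools compared, 3 of 17 flut and 3 of 17 f, belong to a series of 18 pools, whose other groups were vehicle-treated XY fetuses (17 m and 18 m), vehicle-treated XX fetuses of GD18 (18 f) and flutamide-treated XY fetuses of GD18 (18 flut). The 2 groups compared differ in sex and in treatment at once, and the parts of these in a difference cannot be told apart. In whole lung, fewer cells of a type and less RNA per cell cannot be told apart either. The comparison was limited to 17303 autosomal genes of 18193 genes with 1 symbol, each by its probe set of highest mean over all arrays. Of 17401 autosomal genes, 98 genes of pancreas, squamous epithelium and blood had been set aside because 17 f pools 2 and 3 stood above the other 4 pools in them.

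Late gestation is the time at which the mouse lung turns from branching and growth to preparation for air. Alveolar type II cells build surfactant, a film of lipids and proteins that keeps the air spaces open, alveolar type I cells flatten to form the gas exchange surface, and ciliated and club cells mature in the airways. Androgens acting through the androgen receptor are known to delay surfactant production in male fetuses, and flutamide is used to block that action. Levels below are log2 of the deposited intensity, and a difference is 17 flut minus 17 f on that scale. A gene is called higher or lower where the adjusted p of limma (Benjamini-Hochberg over 45037 probe sets) is under 0.05.

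The promoters of 4 genes are shown as examples of called genes of the alveolar type II, ciliated cell and cholesterol synthesis lists, on which the results turn. Slc34a2, which brings phosphate into alveolar type II cells, and Dnali1, a light chain of the axonemal dynein that beats cilia, were called higher in 17 flut. Sc5d and Lss, enzymes of the late steps of cholesterol synthesis, were called lower. The sequences are from RefSeq (GRCm38.p6) and run from 250 bases before to 50 bases after the start of the gene, 5′ to 3′ on the strand of the gene. Capitals mark a match, on either strand, to TTGCGCAA (a palindrome bound by C/EBP factors) in Slc34a2, at chr5:53049103-53049402 on the plus strand, to CCATGGNAA (part of the X-box bound by RFX factors of ciliated cells) in Dnali1, at chr4:125065608-125065907 on the minus strand, and to CCAAT (the box bound by NF-Y) in Sc5d, at chr9:42264251-42264550 on the minus strand, and Lss, at chr10:76531355-76531654 on the plus strand. Only the match named for a gene is in capitals.
Slc34a2: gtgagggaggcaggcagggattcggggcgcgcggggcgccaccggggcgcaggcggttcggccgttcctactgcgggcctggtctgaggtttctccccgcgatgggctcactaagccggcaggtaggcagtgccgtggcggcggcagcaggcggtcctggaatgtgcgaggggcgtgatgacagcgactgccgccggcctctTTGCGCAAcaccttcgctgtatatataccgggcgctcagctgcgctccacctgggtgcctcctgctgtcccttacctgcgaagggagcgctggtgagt
Dnali1: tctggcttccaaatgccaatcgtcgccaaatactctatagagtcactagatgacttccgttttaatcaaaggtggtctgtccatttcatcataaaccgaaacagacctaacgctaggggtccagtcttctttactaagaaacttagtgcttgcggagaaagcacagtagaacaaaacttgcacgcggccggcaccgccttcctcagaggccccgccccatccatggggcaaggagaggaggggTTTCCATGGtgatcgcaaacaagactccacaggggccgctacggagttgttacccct
Sc5d: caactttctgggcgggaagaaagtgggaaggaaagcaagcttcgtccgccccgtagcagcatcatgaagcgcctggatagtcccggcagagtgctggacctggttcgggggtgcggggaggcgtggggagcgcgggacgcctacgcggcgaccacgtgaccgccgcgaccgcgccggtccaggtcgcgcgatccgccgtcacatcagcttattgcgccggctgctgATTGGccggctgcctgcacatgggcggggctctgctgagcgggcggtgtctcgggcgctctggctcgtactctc
Lss: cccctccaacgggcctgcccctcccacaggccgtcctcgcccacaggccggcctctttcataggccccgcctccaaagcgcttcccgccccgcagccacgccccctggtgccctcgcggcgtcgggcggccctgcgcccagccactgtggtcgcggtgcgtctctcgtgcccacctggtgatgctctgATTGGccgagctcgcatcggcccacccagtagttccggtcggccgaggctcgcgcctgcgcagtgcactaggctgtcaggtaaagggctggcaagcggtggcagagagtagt

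In all, 6 motifs were searched on both strands of these windows, with 1 window for each of 27025 genes. TTGCGCAA was in 0.185% of all windows and in 1 of 4 windows of called alveolar type II genes. CCATGGNAA was in 1.95% of all windows and in 1 of 5 windows of called ciliated cell genes. It was also in 1 of 4 windows of called alveolar type II genes (Sftpb), so it was not particular to the ciliated cell list. CCAAT is common, with 37.9% of all windows, and was in 4 of 5 windows of the called cholesterol synthesis genes (Mvd, Pmvk, Lss and Sc5d). TCACNCCAC, most of the sterol response element, was in 1.22% of all windows and in 0 of these 5. It was in 1 of 4 windows of called alveolar type II genes (Abca3). GACCACCCA, the site of Gli factors, was in 0.244% of all windows, and the palindrome read by the androgen and glucocorticoid receptors, AGAACA facing its reverse complement across 3 free bases, in 0.0037%, and neither was in any window of the 289 genes called higher or the 332 called lower that have one. CCAAT was in 36% of the windows of genes called higher and in 43.1% of those called lower. A match is a stretch of letters and not a measured binding site, and matches of different motifs overlapped 0 times in the 4 windows printed.

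The sex of the 6 pools was as labelled. Xist, the RNA of the inactive X chromosome, was at 8.06, 7.83 and 7.86 in 17 flut and at 11.33, 11.56 and 11.46 in 17 f. The Y-linked genes Uty, Kdm5d and Eif2s3y were higher in 17 flut by 4.72, 4.99 and 4.83. The mean of the 4 surfactant protein genes, defining markers of lung, was between 9.73 and 10.81 in the 6 pools, against a median of 6.38 over the array. Sftpd, 1 of the 4, was close to that median in 17 f pools 2 and 3. Markers of other tissues were not even among the XX pools. The mean level of 33 exocrine pancreas genes was 5.46, 5.53 and 5.40 in the 17 flut pools, against 5.47, 7.89 and 7.84 in 17 f pools 1, 2 and 3, and genes of islets, squamous epithelium and blood followed the same pools. The mean of 12 skeletal muscle genes was 6.28 to 6.41 in 17 flut and 7.07, 8.12 and 8.24 in 17 f, and that of 17 liver genes spread from 6.62 to 8.38 in 17 flut and from 8.002 to 9.57 in 17 f. Pools 2 and 3 of 17 f were also the closest pair of all GD17 pools, with a median absolute deviation of their difference over genes of 0.0701, while the pairs within 17 flut lay between 0.0805 and 0.0864 and 17 f pool 1 lay 0.0928 and 0.098 from the other two. With a term in the model for 17 f pools 2 and 3 and 17 m pool 3, the pools high in pancreas genes, 1 gene was called higher and 4 lower, and with 17 f pools 2 and 3 averaged as 1 pool it was 30 and 24. Both settings were chosen after the values were seen.

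**Figure D1:**
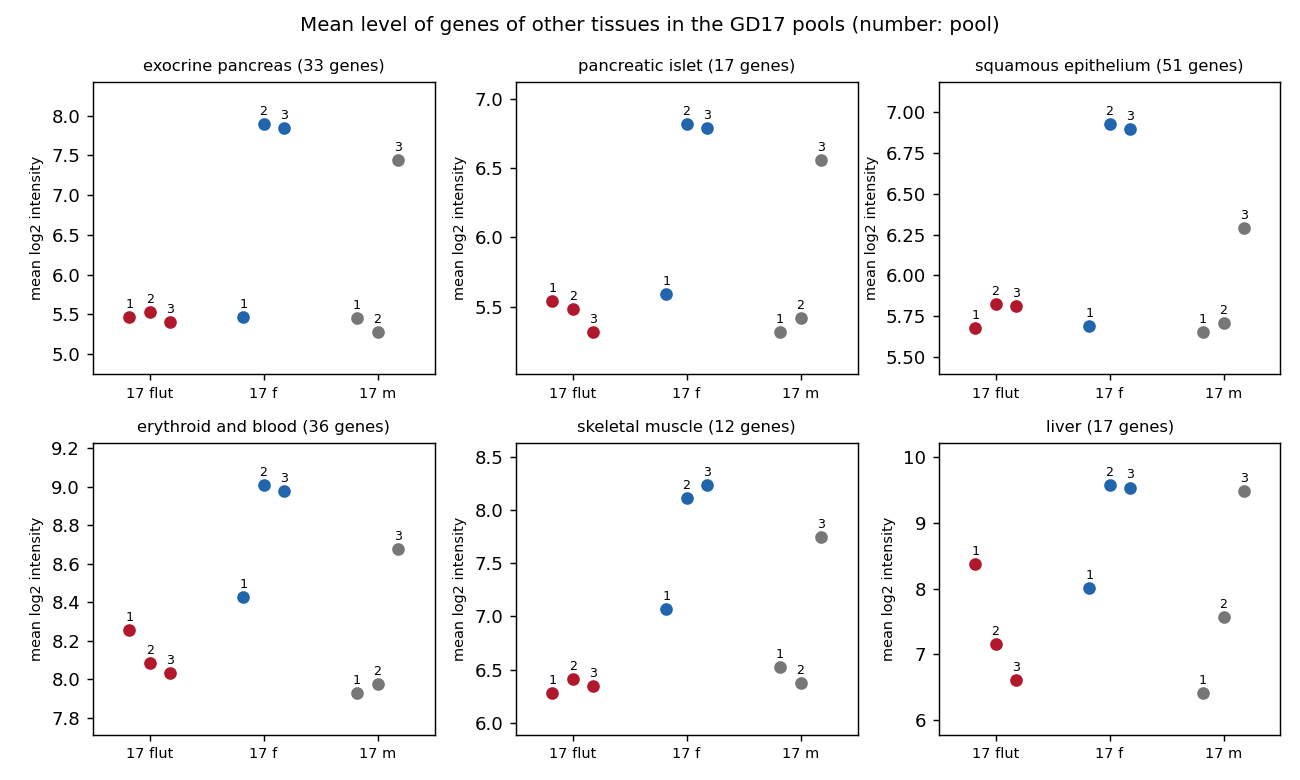
Mean log2 intensity of the listed genes of 6 other tissues (y axis) in the 3 pools each of 17 flut, 17 f and 17 m (x axis, numbers are the pools). In exocrine pancreas genes 17 f pools 2 and 3 stand at 7.89 and 7.84, 17 m pool 3 stands nearest to them, and all 17 flut pools lie between 5.40 and 5.53.

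In all, 369 autosomal genes were called higher in 17 flut than in 17 f (2.13% of those compared) and 410 were called lower (2.37%), 4.5% in either direction, and 1977 probe sets of 45037 were called in either direction (4.39%). The differences were small. Their median was 0.37 among the genes called higher and -0.36 among the genes called lower, with 2 and 17 genes past 1 log2 unit, and the median over all genes compared was -0.002. The pools did not overlap in 368 of the 369 and 405 of the 410, against 17.2% and 20.8% of all genes compared. Set against 17 f pool 1 alone, which is 1 of the 3 pools behind each difference, the medians were 0.33 and -0.30, and against pools 2 and 3 they were 0.39 and -0.38. All 779 genes had the same sign in both, which is fixed in advance for every gene whose pools do not overlap.

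The number of genes called rested on single pools. It was 82, 48 and 37 higher and 96, 36 and 31 lower without 17 flut pool 1, 2 or 3. Without 17 f pool 1 it was 383 higher and 617 lower, without pool 2 it was 38 and 40, and without pool 3 it was 19 and 18. With both 17 f pools 2 and 3 left out and pool 1 as the only XX pool, 0 genes were called higher and 1 lower, although 668 and 734 had an unadjusted p under 0.05. All 779 genes kept their direction against pool 1 alone, which genes without overlap between pools must do, so nothing is read from it. The split between directions moved with the scaling, with 229 higher and 538 lower on median-centred arrays and 400 higher and 218 lower after a further quantile normalization. Of the 80 called genes that are named here, Hhip, Cnot6l and Crabp2 stayed called when any 1 of the 6 pools was left out. Cnot6l has 4 probe sets, of which 1 was called higher and 0 lower.

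**Figure D2:**
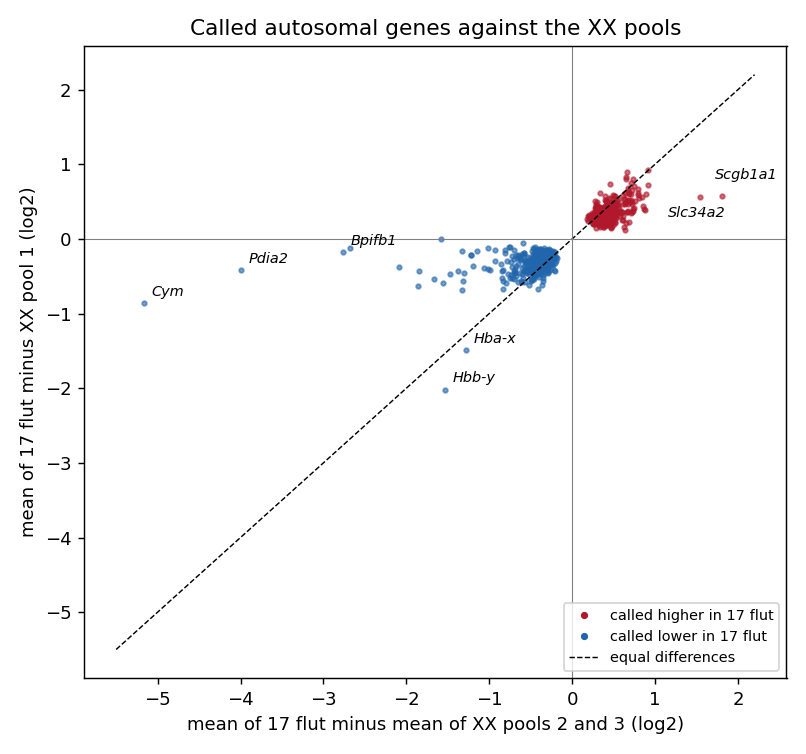
Difference of the 17 flut mean from 17 f pool 1 (y axis, log2) against its difference from the mean of 17 f pools 2 and 3 (x axis, log2) for the 369 genes called higher and the 410 called lower, with a dashed line where both are equal. Most genes lie near the line, while Cym, Pdia2 and Bpifb1 are far lower only against pools 2 and 3, and Hbb-y and Hba-x are lower against all 3 pools.

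Some genes of alveolar cells were called higher in 17 flut. Of 17 alveolar type II genes compared, 5 were called higher and 0 lower (median 0.32, against -0.002 over all genes). Of 4 surfactant protein genes 2 were called higher (median 0.65). Over all genes compared, 2.13% were called higher and 2.37% lower. A further type II gene, 1 of 18 on autosomes, had been set aside because 17 f pools 2 and 3 stood above the other 4 pools in it. Without overlap between pools, 11 of the 17 were higher and 1 lower, against 17.2% and 20.8% of all genes compared. Slc34a2 was at 9.92, 9.65 and 9.79 in the 17 flut pools and at 9.22, 8.27 and 8.22 in the 17 f pools. All 17 flut pools lay above all 17 f pools, and the mean was 2.32-fold higher (difference 1.22, standard error 0.32, adjusted p = 0.043). Sftpc, the surfactant protein made by type II cells alone, was at 14.33, 14.28 and 14.30 in 17 flut and at 14.05, 13.94 and 13.95 in 17 f. Its groups did not overlap either, at a difference of 0.32 (standard error 0.07, adjusted p = 0.028). Sftpb, which is needed to spread the surfactant film, was at 10.53, 10.37 and 10.44 in 17 flut and at 10.09, 9.75 and 9.84 in 17 f (difference 0.56, standard error 0.15, adjusted p = 0.046). Abca3, the transporter that loads lipids into lamellar bodies, was higher by 0.46 (adjusted p = 0.039), and Lpcat1, which makes the dipalmitoyl lipid of surfactant, by 0.37 (adjusted p = 0.029).

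The other surfactant protein genes did not pass. Sftpd, a collectin of innate defence, had 8.31, 7.76 and 8.02 in 17 flut and 7.78, 6.45 and 6.94 in 17 f (difference 0.97, adjusted p = 0.062), and its groups overlapped because of 17 f pool 1. Sftpa1 had a difference of 0.74 without overlap (adjusted p = 0.09). Against 17 f pool 1 alone the median over the 4 genes was 0.25. In all 4 genes, as in Slc34a2, 17 f pool 1 lay above the other two XX pools and so nearer to the 17 flut pools.

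Among 16 alveolar type I genes, 2 were called higher and 0 lower (median 0.28), against 2.13% and 2.37% of all genes compared. Ager, the receptor for advanced glycation end products on the basal face of type I cells, was at 11.90, 11.69 and 11.67 in 17 flut and at 11.35, 10.95 and 11.08 in 17 f (difference 0.63, standard error 0.16, adjusted p = 0.043). Clic5, a chloride intracellular channel protein, was at 9.28, 9.09 and 9.02 in 17 flut and at 8.64, 8.38 and 8.43 in 17 f (difference 0.65, adjusted p = 0.045). Neither gene overlapped between groups, and 1 of 2 probe sets of Ager and 2 of 4 of Clic5 were called higher. Hopx and Emp2, a cofactor without DNA binding and a membrane protein of type I cells, had differences of 0.41 and 0.39 that missed the threshold (adjusted p = 0.082 and 0.079). The calls among alveolar genes were lost with 1 pool fewer. Without any 1 of the 3 17 flut pools or of 17 f pools 2 and 3, 0 genes of the type II, type I and surfactant protein lists were called, and without 17 f pool 1 the counts were 7, 2 and 4.

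Some airway genes were called higher as well. Of 17 listed ciliated cell genes, 6 were called higher and 0 lower (median 0.38). These were Rsph1, Ccdc113, Dnaic1, Ccdc39, Dynlrb2 and Dnali1. Dnaic2, Wdr63, Pifo and Lrrc23 below are outside that list and were named for their large differences. In 13 of the 17 the pools did not overlap with 17 flut higher, against 17.2% of all genes compared. Dnaic2, an intermediate chain of the outer dynein arm, was at 6.46, 6.09 and 6.30 in 17 flut and at 5.37, 5.59 and 5.15 in 17 f, a 1.88-fold difference (0.91, standard error 0.16, adjusted p = 0.01). Every 17 flut pool was above every 17 f pool, and the difference from 17 f pool 1 alone was 0.92. Wdr63, a component bound to inner dynein arms, was at 4.89, 4.93 and 4.83 in 17 flut and at 3.99, 4.41 and 4.04 in 17 f. The difference was 0.74 (standard error 0.13, adjusted p = 0.0089), at dim levels near or below 4.82, the lower quartile over the array. Dynlrb2, a dynein light chain of motile cilia, had 9.50, 9.28 and 9.33 in 17 flut and 8.80, 8.59 and 8.47 in 17 f (difference 0.75, adjusted p = 0.036). The radial spoke gene Rsph1 was higher by 0.50, the axonemal ruler gene Ccdc39 by 0.50 and Ccdc113 by 0.68. Dnaic1 was higher by 0.41 and Dnali1, whose promoter is printed above, by 0.71. Of Ccdc39 1 of 3 probe sets was called higher, of Dnaic1 and Dnaic2 1 of 2 each and of Dnali1 2 of 2. Pifo, which acts at the base of the primary cilium, and Lrrc23, a radial spoke protein, were among the 12 largest differences with 0.75 and 0.73. In families taken by the start of the symbol after values had been seen, 4 of 15 axonemal dynein genes, 2 of 6 radial spoke genes and 3 of 24 Cfap genes were called higher and 0 lower. Of 5 tektin genes 0 were called, and of all genes compared 2.13% were called higher. Without 17 f pool 1, 5 of the 17 listed ciliated cell genes were called, and without any other pool at most 1.

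Scgb1a1, the secreted protein of club cells, had the largest difference of any gene called higher. It was at 8.84, 8.11 and 8.37 in 17 flut and at 7.86, 6.64 and 6.63 in 17 f. The lowest 17 flut pool was a little above 17 f pool 1 and far above pools 2 and 3, and the mean was 2.64-fold higher (difference 1.398, standard error 0.37, adjusted p = 0.045). Against 17 f pool 1 alone the difference was 0.58. It was the 1 gene called of 15 club cell genes (median 0.18), where 2.13% of all genes compared were called higher. Scgb3a2, a secretoglobin of the same cells, was at 12.86, 12.81 and 12.84 in 17 flut and at 12.75, 12.38 and 12.38 in 17 f (difference 0.33, adjusted p = 0.10), and Hp, the haptoglobin gene, differed by 0.67 (adjusted p = 0.069). Fmo2, the flavin monooxygenase of lung, was higher by 0.76 (adjusted p = 0.023), with 10.24, 10.04 and 10.16 in 17 flut and 9.34, 9.41 and 9.42 in 17 f.

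**Figure D3:**
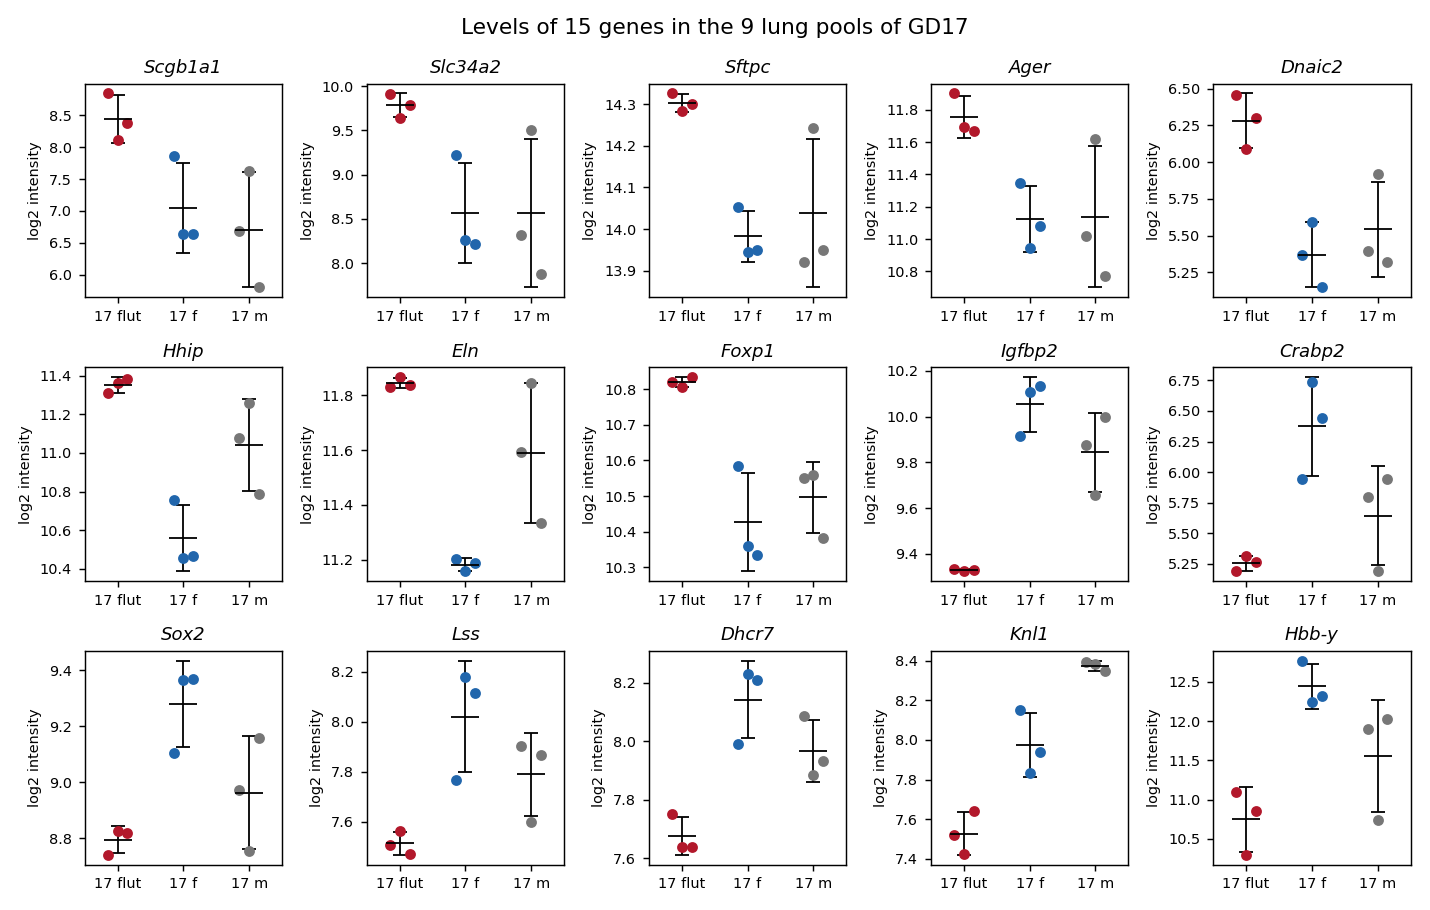
Log2 intensity (y axis, a scale of its own for each gene) of 15 genes in the pools of 17 flut, 17 f and 17 m. Points are pools 1, 2 and 3 from left to right, and the bars are mean and SD of 3 pools. The 17 flut pools of Hhip lie between 11.31 and 11.38, above all 17 f pools, while those of Igfbp2 lie at 9.32 and 9.33, below all 17 f pools.

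**Figure D4:**
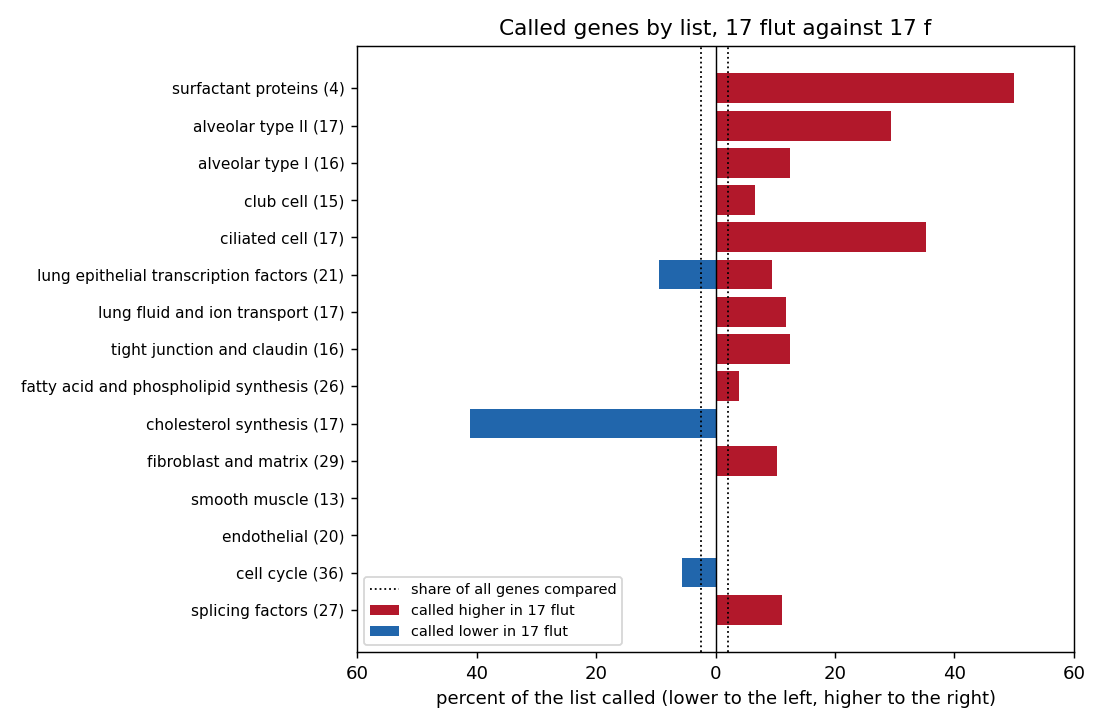
Percent of the genes of 15 lists (y axis, number compared in brackets) that were called higher (to the right) or lower (to the left) in 17 flut than in 17 f, with dotted lines at 2.13% and 2.37%, the shares over all genes compared. The ciliated cell and alveolar type II lists reach furthest to the right among lists of over 4 genes, and cholesterol synthesis to the left.

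Genes of the airspace wall and of signals between epithelium and mesenchyme were also called. Hhip, which binds and buffers hedgehog ligands, was at 11.31, 11.36 and 11.38 in 17 flut and at 10.76, 10.45 and 10.47 in 17 f. This was a 1.73-fold difference of narrow pools (0.79, standard error 0.11, adjusted p = 0.0033), and it was 0.60 against 17 f pool 1 alone. Shh, the hedgehog ligand of lung epithelium, was at 12.02, 11.88 and 11.89 in 17 flut and at 11.61, 11.54 and 11.61 in 17 f (difference 0.34, adjusted p = 0.022). The receptor and target gene Ptch1 differed by 0.28 (adjusted p = 0.06). Gli1, the transcription factor that hedgehog induces, differed by -0.07 (adjusted p = 0.72) and Gli3 by -0.14 (adjusted p = 0.24). Of 14 hedgehog genes 2 were called higher and 0 lower (median -0.03), against 2.13% and 2.37% of all genes compared.

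Of 29 fibroblast and matrix genes, 3 were called higher and 0 lower (median 0.08), against 2.13% and 2.37% of all genes compared. Eln, the elastin that septa are built on, was at 11.83, 11.87 and 11.84 in 17 flut and at 11.20, 11.16 and 11.19 in 17 f. The XX pools were as close to each other as the XY pools here, pool 1 included, and the difference was 0.66 (standard error 0.12, adjusted p = 0.01). Fn1, the gene of fibronectin, was higher by 0.45 (adjusted p = 0.03) and Col6a3, a chain of microfibrillar collagen, by 0.31 (adjusted p = 0.04). Without 1 of the 17 flut pools or of 17 f pools 2 and 3 at most 1 of the 3 was called. Of 13 smooth muscle genes and 20 endothelial genes limma called none, with medians of -0.18 and 0.09. At an unadjusted p under 0.05 there were 5 lower smooth muscle genes and 4 higher endothelial genes. Of all 17303 genes compared, 2316 were lower and 1982 higher at that p. Among smooth muscle genes Actg2 had 9.48, 9.74 and 9.61 in 17 flut and 9.75, 10.65 and 10.65 in 17 f, so that 17 f pool 1 was next to the 17 flut pools (adjusted p = 0.084), and Cnn1 had the same order of pools (adjusted p = 0.068).

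Receptors for growth factors were called in a few cases. Fgfr3 was at 10.08, 9.91 and 9.98 in 17 flut and at 9.58, 9.59 and 9.52 in 17 f (difference 0.43, standard error 0.08, adjusted p = 0.012), and Fgfr2, the epithelial receptor that drives branching, was higher by 0.31 (adjusted p = 0.047), 2 of 16 fibroblast growth factor genes with 0 lower. Tgfbr3, the coreceptor betaglycan, was higher by 0.34 (adjusted p = 0.033), 1 of 19 TGF-beta genes. The junction genes Cdh1 (E-cadherin) and Cgn (cingulin) were higher by 0.35 and 0.26, 2 of 16 in their list, and Slc12a2 and Slc4a4, carriers that move chloride and bicarbonate into the epithelium, by 0.34 and 0.28, 2 of 17 genes of lung fluid and ion transport. None of these lists had a gene called lower. Of all genes compared 2.13% were called higher and 2.37% lower, so 0 lower calls in lists of this size say little. Of 2 probe sets of Cgn 1 was called higher.

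Transcription factors of the lung epithelium went both ways. Of 21, 2 were called higher and 2 lower (median 0.09), against 2.13% and 2.37% of all genes compared. Foxp1, a repressor that acts in airway and alveolar epithelium, was at 10.82, 10.81 and 10.83 in 17 flut and at 10.59, 10.36 and 10.34 in 17 f (difference 0.39, adjusted p = 0.022). Grhl2, which keeps epithelial junction genes on, was higher by 0.29 (adjusted p = 0.049). Sox2, the factor of proximal airway fate, was at 8.74, 8.82 and 8.82 in 17 flut and at 9.10, 9.37 and 9.37 in 17 f (difference -0.48, standard error 0.12, adjusted p = 0.033). Ehf, an Ets factor of epithelia, had 6.27, 6.13 and 6.23 in 17 flut and 6.37, 7.39 and 7.31 in 17 f, so that its call rested on pools 2 and 3, and the difference was -0.81 overall and -0.16 against pool 1. Klf5, a zinc finger factor needed for perinatal maturation of the epithelium, was at 9.53, 9.46 and 9.44 in 17 flut and at 9.15, 9.35 and 9.39 in 17 f (difference 0.18, adjusted p = 0.27), and Nfib, which times lung maturation, overlapped between groups (adjusted p = 0.31).

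The glucocorticoid and androgen lists held 1 and 2 calls, where 2.13% of all genes compared were called higher. Counts this small are read neither as many nor as few. Zbtb16, a zinc finger gene that glucocorticoids induce, was at 9.66, 9.38 and 9.60 in 17 flut and at 8.84, 8.85 and 8.74 in 17 f (difference 0.74, adjusted p = 0.049), and was the 1 gene called of 18 glucocorticoid response genes. Hsd11b1, the enzyme that regenerates active glucocorticoid, had 9.77, 9.59 and 9.69 in 17 flut and 9.28, 8.99 and 8.91 in 17 f without passing (difference 0.62, adjusted p = 0.06), and Nr3c1, the glucocorticoid receptor, differed by 0.23 (adjusted p = 0.068). Of 24 genes of androgen metabolism and androgen receptor coregulators, Ncoa1, a steroid receptor coactivator, was higher by 0.32 (adjusted p = 0.025) and Svil, the actin-binding coregulator supervillin, by 0.21 (adjusted p = 0.038), and none was lower. Cyp1a1, an enzyme that ligands of the aryl hydrocarbon receptor induce, overlapped between groups (adjusted p = 0.27). It was at 4.83, 5.18 and 4.79 in 17 flut and 4.72, 4.83 and 4.53 in 17 f. These dim levels lie near 4.82, the lower quartile over the array, so nothing is read from the missing call. Of 18 xenobiotic response genes limma called 0. At an unadjusted p under 0.05, 5 of them were lower, as were 2316 of all 17303 genes compared. Without overlap between pools 4 were higher and 4 lower, against 17.2% and 20.8% of all genes.

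Single genes of growth and retinoid signalling were called lower, where 2.37% of all genes compared were. Igfbp2, a carrier that holds insulin-like growth factors, was at 9.33, 9.32 and 9.33 in 17 flut and at 9.92, 10.11 and 10.13 in 17 f. The 17 flut pools were all but equal, the difference was -0.72 (standard error 0.13, adjusted p = 0.012), and it was -0.59 against 17 f pool 1. Igf1 itself overlapped between groups (difference -0.09, adjusted p = 0.78), and Igfbp2 was the 1 gene called of 16 in its list. Crabp2, which carries retinoic acid to its nuclear receptor, was at 5.19, 5.31 and 5.26 in 17 flut and at 5.94, 6.74 and 6.44 in 17 f (difference -1.12, standard error 0.18, adjusted p = 0.007). Crabp1, a second carrier of retinoic acid, was at 4.83, 4.70 and 4.92 in 17 flut and at 5.49, 5.56 and 5.74 in 17 f. The difference was -0.78 (adjusted p = 0.019), with 17 flut near 4.82, the lower quartile over the array. Crabp1 and Crabp2 were both lower than in every XX pool, and they were 2 of 17 retinoid genes with 0 higher. Single genes were called lower in the BMP list (Id4, an inhibitor of helix-loop-helix factors, by -0.58, 1 of 18), the Wnt list (Sfrp2, a secreted Wnt antagonist, by -0.37, 1 of 24) and the immediate early list (Myc, by -0.40, 1 of 18).

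Some cholesterol synthesis genes were called lower in 17 flut. Of 17 compared, 7 were called lower and 0 higher (median -0.28), where 2.37% of all genes compared were called lower. In 13 the pools did not overlap with 17 flut lower, against 20.8% of all genes compared. Dhcr7, the last enzyme of one branch of the pathway, was at 7.75, 7.64 and 7.64 in 17 flut and at 7.99, 8.23 and 8.21 in 17 f (difference -0.47, standard error 0.11, adjusted p = 0.028). Lss, which closes the sterol rings, was at 7.51, 7.56 and 7.47 in 17 flut and at 7.77, 8.18 and 8.12 in 17 f (difference -0.51, adjusted p = 0.041). Sc5d, a desaturase that acts late in the pathway, was at 7.79, 8.06 and 7.82 in 17 flut and at 8.20, 8.61 and 8.65 in 17 f (difference -0.60, adjusted p = 0.042). In each of these 17 f pool 1 lay between the 17 flut pools and the other two XX pools. Upstream, Mvd was lower by -0.34, Pmvk by -0.28, Fdps by -0.48 and Fdft1, the squalene synthase gene, by -0.36. Mvd was highest in 17 f pool 1, with 6.94, 7.19 and 7.16 in 17 flut and 7.54, 7.37 and 7.41 in 17 f. Hmgcs1, near the entry of the pathway, overlapped between groups (difference -0.08, adjusted p = 0.48). Against 17 f pool 1 alone the median of the list was -0.18. The 7 calls were 0 without any 1 of the 17 flut pools or of 17 f pools 2 and 3, 6 without 17 f pool 1, 2 with either a further quantile normalization or cyclic loess and 4 with the block of replicate numbers. In the list of fatty acid and phospholipid synthesis, by contrast, 1 of 26 genes was called higher (Lpcat1) and 0 lower, and Elovl6, a fatty acid elongase, did not pass at -0.46 (adjusted p = 0.055).

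Of 36 cell cycle genes, 2 were called lower and 0 higher (median -0.16, and -0.19 against 17 f pool 1 alone), where 2.37% of all genes compared were called lower. In 22 of them the pools did not overlap with 17 flut lower, against 20.8% of all genes. Knl1, a kinetochore scaffold, was at 7.52, 7.42 and 7.64 in 17 flut and at 8.15, 7.83 and 7.94 in 17 f (difference -0.45, standard error 0.09, adjusted p = 0.019), and Ccna2, the cyclin of S phase and G2, was at 10.82, 10.73 and 10.87 in 17 flut and at 11.13, 11.10 and 11.12 in 17 f (difference -0.31, adjusted p = 0.046). Both were lower than each XX pool, 17 f pool 1 included, and with any 1 pool left out at most 1 of them was called. Of 2 probe sets of Ccna2 1 was called lower.

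Some families of housekeeping genes, taken by the start of the symbol after values had been seen, held lower calls. Of 76 mitochondrial ribosomal protein genes, 14 were called lower (18.4%, against 2.37% of all genes compared) and 0 higher (median -0.19), and in 63 the pools did not overlap with 17 flut lower, against 20.8% of all genes. Of 48 genes with the proteasome prefix Psm, which not only subunits carry, 6 were called lower (Psma4, Psmg1, Psmd13, Psmd9, Psmg3 and Psmc3ip). Of 42 genes with the complex I prefix 5 were called lower, of 32 tRNA synthetase genes 4 and of 8 Nop genes of the nucleolus 3 (Nop56, Nop58 and Nop2). In each of these families 0 were called higher. Of 44 cytosolic ribosomal protein genes 1 was called lower, at a median of -0.03. Other families counted in the same way held few calls. Of 10 chaperonin and 10 exosome genes 1 each was called lower, and of 40 collagen genes 1 was called higher and 1 lower. Of 9 Mcm, 10 SR splicing factor and 18 claudin genes 0 were called. The number of mitochondrial ribosomal protein genes called was 3, 1 and 1 without 17 flut pool 1, 2 or 3, 14, 2 and 1 without 17 f pool 1, 2 or 3, and 0 without 17 f pools 2 and 3 together. It was 3 after a further quantile normalization and 7 after cyclic loess.

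Splicing factor genes had 3 of 27 called higher and 0 lower, at a median of 0.00 for the list. Over all genes compared, 2.13% were called higher. Luc7l2, a component of the U1 small nuclear particle, was at 12.07, 12.15 and 12.29 in 17 flut and at 11.85, 11.71 and 11.65 in 17 f (difference 0.43, standard error 0.08, adjusted p = 0.0096). Rbm39, a splicing factor and nuclear receptor coactivator, was at 11.20, 11.30 and 11.41 in 17 flut and at 10.90, 10.81 and 10.82 in 17 f (difference 0.46, adjusted p = 0.0097), and Sfpq, a paraspeckle protein, was higher by 0.32 (adjusted p = 0.038). Cnot6l, a deadenylase of the CCR4-NOT complex that shortens mRNA tails, was at 10.65, 10.64 and 10.80 in 17 flut and at 10.08, 9.88 and 9.93 in 17 f (difference 0.73, standard error 0.10, adjusted p = 0.0035). In the vehicle-treated XY pools Rbm39 was at 11.43, 11.37 and 11.30 and Luc7l2 at 12.24, 12.37 and 12.28, next to the 17 flut pools, while Cnot6l was at 10.31, 10.26 and 10.09, between the groups compared. With 1 pool left out at a time, 0 to 3 of the 3 splicing factor genes stayed called, 0 of them without 17 flut pool 3 or 17 f pool 3. Gsap, a regulator of gamma-secretase, completes the 12 largest higher genes with 0.85 (adjusted p = 0.024).

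The embryonic globins were lower in 17 flut against all XX pools. Hbb-y, the embryonic epsilon-like beta globin of primitive red cells, was at 11.10, 10.29 and 10.86 in 17 flut and at 12.77, 12.24 and 12.32 in 17 f, a 3.24-fold lower mean (difference -1.70, standard error 0.39, adjusted p = 0.028). It was highest in 17 f pool 1, the XX pool with the lower mean of blood genes, and all 3 of its probe sets were called lower. Hba-x, the embryonic zeta globin, was at 7.55, 7.13 and 7.41 in 17 flut and at 8.86, 8.63 and 8.64 in 17 f (difference -1.35, standard error 0.26, adjusted p = 0.015). Hbb-bh1, another embryonic globin, was lower by -0.44 (adjusted p = 0.038). Hbb-b2, an adult beta globin, was at 11.44, 11.49 and 11.56 in 17 flut and at 11.31, 11.18 and 11.02 in 17 f (difference 0.33, adjusted p = 0.092). Globin genes have near-identical copies, and a probe set may take up signal from more than 1 of them. With 1 pool left out at most 1 of the 3 embryonic globin calls remained. Of 36 blood genes on the array 26 were set aside, and the mean level of the list was 8.25, 8.09 and 8.03 in 17 flut and 8.43, 9.01 and 8.98 in 17 f.

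Most of the largest lower differences belonged to 17 f pools 2 and 3. Cym, the gene of the stomach protease chymosin, was at 7.35, 7.32 and 7.31 in 17 flut and at 8.18, 12.51 and 12.47 in 17 f (difference -3.73, adjusted p = 0.048, and -0.86 against 17 f pool 1). Pdia2, a disulfide isomerase of pancreas, was at 4.72, 4.63 and 4.93 in 17 flut and at 5.18, 8.85 and 8.66 in 17 f (difference -2.80, adjusted p = 0.0499, and -0.42 against pool 1). Bpifb1, a secreted defence protein of airway and mouth, was at 6.16, 6.32 and 6.22 in 17 flut and at 6.41, 8.99 and 9.002 in 17 f (difference -1.90, adjusted p = 0.041, and -0.18 against pool 1). These genes are in no list that was set aside, and their order over pools is that of the pancreas and squamous markers, with 17 m pool 3 also high in Cym (11.45) and Pdia2 (7.42). The same order held in 2300002M23Rik (-1.83, and -0.13 against pool 1), Sptssb (-1.52 and -0.38), Cited4 (-1.45 and -0.63), Agr2 (-1.37 and -0.42), Nxpe2 (-1.29 and -0.54), Elovl4 (-1.24 and -0.59) and Plac8 (-1.14 and -0.46). In 10 of the 410 genes called lower, both 17 f pools 2 and 3 stood over 1 log2 unit above all other 4 pools, and in 0 of the 369 called higher. Without these, 400 were called lower. By a looser measure more calls leaned on pools 2 and 3. In 52 of the 410 and 10 of the 369, the whole difference was over 2 times that against 17 f pool 1 alone.

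Leukocyte and endocrine markers were lower in a few genes, where 2.37% of all genes compared were called lower. C1qc, a complement chain of macrophages, was at 7.25, 6.996 and 7.23 in 17 flut and at 7.43, 7.52 and 7.49 in 17 f (difference -0.32, adjusted p = 0.026), and Fcer1g, the common signalling chain of Fc receptors, was lower by -0.38, 2 of 17 macrophage and leukocyte genes. Chga, the chromogranin of neuroendocrine cells, was at 6.08, 6.07 and 5.93 in 17 flut and at 6.44, 6.71 and 7.01 in 17 f (difference -0.69, adjusted p = 0.036), and islet genes had the same high pools. Wfdc2, a secreted protease inhibitor of airway epithelium, was higher by 0.27 (adjusted p = 0.047), beside Bpifb1 the only called gene of 16 in secreted innate defence.

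Of 56 genes that the study names in its text and were compared, 7 were called higher and 4 lower. Over all genes compared, the shares were 2.13% and 2.37%. The list was chosen on these samples and so is no independent evidence of direction. The higher ones beside Foxp1, Sftpc, Sftpb, Lpcat1 and Tgfbr3 were Fcgr2b, an inhibitory Fc receptor (0.39, adjusted p = 0.042), and Prkca, the protein kinase C alpha gene (0.34, adjusted p = 0.048). The lower ones beside Igfbp2 were Pbx3, a homeobox cofactor (-0.30, adjusted p = 0.02), Crls1, the cardiolipin synthase (-0.28, adjusted p = 0.025), and Ptges2, a prostaglandin E synthase (-0.33, adjusted p = 0.041). Ptges2 had 7.41, 7.29 and 7.37 in 17 flut and 7.70, 7.60 and 7.75 in 17 f, and the 17 m pools, at 7.45, 7.24 and 7.39, lay within the range of 17 flut or beside it.

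The vehicle-treated XY pools of GD17 give the place of both groups. Of the 369 genes called higher, the 17 m mean lay between 17 flut and 17 f in 276, beyond 17 f in 63 and beyond 17 flut in 30, and it was nearer to 17 f in 280. Of the 410 genes called lower, it lay between in 386 and was nearer to 17 flut in 250. Over all genes compared it lay between in 7206 of 17303 and was nearer to 17 f in 9421. The called genes were chosen for a difference between 17 flut and 17 f, and nothing is read from how often 17 m lay between them. The 17 m pools differed among themselves in alveolar genes. Slc34a2 was at 8.31, 9.50 and 7.88 and Ager at 11.02, 11.62 and 10.77 in 17 m pools 1, 2 and 3, so that pool 2 was next to the 17 flut pools in Ager.

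The vehicle-treated XY pools of both days, none of which enters the difference, show how the same genes change over the following day. They do enter the spread of the model, which both comparisons share. A gene with a small spread is more readily called in both. The shares below among called genes are thus not independent of the first calls, and the shares over all genes are no even measure for them. Between 18 m and 17 m, 3133 of the 17303 genes were called higher at GD18 (18.1%) and 2165 lower (12.5%). Of the 369 genes higher in 17 flut than in 17 f, 187 were called higher at GD18 in XY lungs (50.7%) and 13 lower (3.52%). Of the 410 genes lower in 17 flut, 193 were called lower at GD18 (47.1%) and 15 higher (3.66%). Without 17 m pool 3 and 18 m pool 3, which were high in liver genes and, at GD17, in pancreas genes, the counts were 159 and 10 of the 369 and 143 and 13 of the 410, against 13.7% higher and 9.44% lower over all genes. These 4 counts were chosen after the values were seen.

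Of the alveolar type II, alveolar type I and ciliated cell genes 15 of 17, 15 of 16 and 15 of 17 were called higher in 18 m than in 17 m, and of the 36 cell cycle genes 32 were called lower. Scgb1a1 was higher at GD18 in XY lungs by 4.93 (standard error 0.37, limma adjusted p = 6.7e-07), Slc34a2 by 3.39, Eln by 1.02 and Hhip by 0.61, and Igfbp2 was lower by -1.15 and Hbb-y by -2.24. The cholesterol genes were less even, with 5 of 17 called lower and 1 higher, and of the 7 called between 17 flut and 17 f, Dhcr7 (-0.58, adjusted p = 0.00082) and Fdps (-0.41, adjusted p = 0.026) were lower at GD18. Without 17 m pool 3 and 18 m pool 3 Dhcr7 was still lower (-0.65, adjusted p = 0.0031), while Fdps did not pass (-0.18, adjusted p = 0.30). Of the 27 splicing factor genes 15 were called lower and 0 higher at GD18. Of the 3 called higher in 17 flut, Sfpq was lower at GD18 (-0.24, adjusted p = 0.042, and 0.12 without the same pools), and Rbm39 (-0.22, adjusted p = 0.052) and Luc7l2 (0.13, adjusted p = 0.24) did not pass, nor did Cnot6l (0.22, adjusted p = 0.14).

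**Figure D5:**
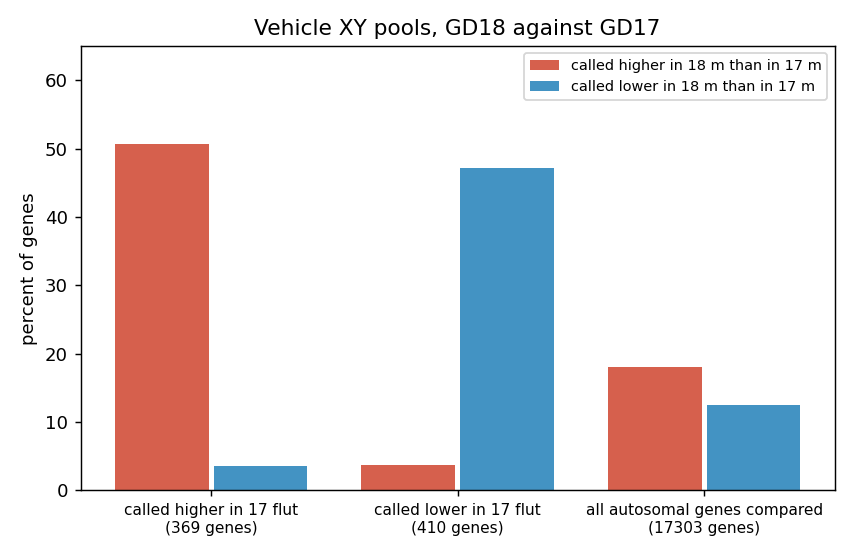
Percent of genes (y axis) called higher or lower in 18 m than in 17 m, for the 369 genes called higher in 17 flut than in 17 f, the 410 called lower, and all 17303 autosomal genes compared (x axis). The bars for higher at GD18 stand at 50.7%, 3.66% and 18.1%, and those for lower at 3.52%, 47.1% and 12.5%.

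By GD18 the differences between flutamide-treated XY and vehicle-treated XX lungs in these genes were smaller. The median difference over the 369 genes was 0.37 at GD17 and 0.05 at GD18, and over the 410 genes it was -0.36 and -0.01, and 0 and 2 of them were called in the same direction at GD18. The change of the difference between the days passed its own test in 25 and 14 of them, against 0.513% of all probe sets, and in 2 and 0 without 18 flut pool 3, whose Xist level was near that of XX pools and whose Y-linked genes lay between the XX pools and the other XY pools. The genes were chosen for their difference at GD17, which also enters the test of change. Neither a smaller difference at GD18 nor the number of genes that passed is thus a finding in itself. The share over all probe sets is no even measure for them.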

How the data were processed

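Total RNA of fetal lung was hybridized on Affymetrix MOE430 2.0 arrays, 3 pools for each of 6 groups. The authors subtracted background, normalized and summarized the probe sets by RMA, and the deposited intensity is on a linear scale, so its log2 was taken here, although log2 values had been assumed beforehand. The submitters' processing notes name limma. The 64 AFFX probe sets were left out. Symbols come from the platform annotation and chromosomes from RefSeq (GRCm38.p6), and 34945 probe sets had 1 symbol, 932 several and 9160 none. With limma 3.58.1 in R 4.3.3 a model of 6 group means was fitted to 18 arrays (12 residual degrees of freedom), with eBayes and Benjamini-Hochberg adjustment over 45037 probe sets, and was tested on simulated data. Standard errors are those of that model. The number of arrays limits the precision.

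The genes, lists and rules were chosen with earlier results of these data known. Named are the 12 largest differences in each direction among called genes without overlap, the genes with the smallest p in each list (at most 4), and genes the study names. Lists were counted, with no set test. Symbol families and motifs were chosen after values were seen. The alternatives were the threshold, normalization, the dimmer probe sets left out, array weights, a trend in the variance prior, the arrays in the fit, the unit of counting, the genes set aside, a replicate block and pools left out. Added after seeing the data were the mean of 17 f pools 2 and 3 counted as 1 pool and the fits without 18 flut pool 3 or 17 m and 18 m pool 3.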

Additional observations from a re-analysis of the deposited data

Results flagged for a closer look

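Among the genes named above, the difference of flutamide-treated XY and vehicle-treated XX lungs changed between days by its own limma test (GD18 difference minus GD17 difference, adjusted p under 0.05) in 7. It was -0.84 in Hhip (standard error 0.16, adjusted p = 0.031), -0.73 in Cnot6l, -0.87 in Ccdc39, -0.66 in Luc7l2, -0.54 in Sfpq, -0.53 in Rbm39 and 0.85 in Dhcr7. In Hhip the difference was 0.79 at GD17 and -0.05 at GD18, and in Dhcr7 it was -0.47 at GD17 and 0.38 at GD18. Without 18 flut pool 3 the values were -0.81 in Hhip and 0.90 in Dhcr7, and none of the 7 passed, with adjusted p between 0.057 and 0.14. All 7 genes were called for their GD17 difference, which enters this test. A change toward 0 in them is thus no finding in itself.

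In 18 flut pool 3, an array that serves here for the spread of the model and for the values of GD18, the level of Xist was 11.95, while pools 1 and 2 of the group had 8.15 and 8.08 and the 18 f pools 12.33 to 12.51. The Y-linked genes Uty, Kdm5d and Eif2s3y were at 7.11, 7.11 and 7.21 in that pool, at 8.04 to 8.53 in 18 flut pools 1 and 2, and at 3.31 to 3.84 in 18 f.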

How the results depend on the processing

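Counts below are autosomal genes higher and lower in 17 flut and, as the last number, probe sets, with 369, 410 and 1977 as reported. With 1 pool left out they ranged between 19 and 383, 18 and 617, and 135 and 2393, lowest without 17 f pool 3 and highest without 17 f pool 1. With both 17 f pools 2 and 3 left out they were 0, 1 and 12, with the mean of these pools as 1 pool 30, 24 and 178, and with a term for 17 f pools 2 and 3 and 17 m pool 3, the pools with high pancreas genes, 1, 4 and 36. At an adjusted p under 0.01 they were 24, 23 and 161. With array weights they were 1498, 2038 and 8664, with the 6 arrays alone 671, 939 and 4270, and without 18 flut pool 3 and 18 m pool 3 they were 613, 944 and 4078. Median centring gave 229 higher genes, a further quantile normalization 218 lower, a filter on dim probe sets 675 lower, and the 9 arrays of GD17 697 lower. The replicate numbers did not pair the samples (correlations of deviations -0.17, -0.04 and -0.13), and with a replicate block the counts were 166, 196 and 1047. All other alternatives kept these counts within 1.5 times. Among them, the mean over the probe sets of a gene gave 282 higher and 370 lower genes. It kept only 197 of the 369 and 261 of the 410 calls, and 31 of the 100 named genes lost their call. None of the named genes changed direction under any alternative that held them (100 genes, and 84 with dim probe sets left out), while 80 lost their call without 17 f pools 2 and 3 and 33 with the replicate block. The cause was not tested. Leaving out a pool cannot change the direction of a gene whose pools do not overlap. Where only 1 XX pool was left, it was assumed to vary like the other groups.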
